A study of Sus scrofa with 16 samples.

Results

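The genes described here encode the core proteins of the spliceosome and the classical splicing factors, measured in left ventricle of exercise-trained and sedentary pigs. A gene was taken in when the array's annotation gave its probe set a symbol starting with SNRP, SNRNP, SRSF, SFRS, SF3A, SF3B, HNRNP, PRPF or LSM and a digit, or the symbol U2AF1 or U2AF2. That gave 65 of the 6765 genes with a single symbol, on 103 of the 23935 probe sets tested. U2AF1 was not analysed here. A probe set is a handful of short probes designed to match a transcript, and its value is a signal on the log2 scale, so that a difference of 1 is a doubling. Where a gene had several probe sets, the 1 with the highest mean signal over all arrays stood for the gene, and the others were compared with it.

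The samples were 16 young pigs from a cross of Yorkshire with Landrace, aged 2 to 3 months. There were 8 exercised and 8 sedentary animals, with 4 females and 4 neutered males in each group, and RNA was taken 4 to 5 weeks after the protocol began. Both groups therefore shared age, cross and castration of the males, and no intact male was studied. The kind and amount of exercise are given in no label or design text used here. Each animal had its own array of whole left ventricular tissue, so the p-values below measure the spread between animals. The series title places the study in physiological growth of the left ventricle, and the comparison of exercised with sedentary animals asks which transcripts differ under training.

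Splicing removes introns from precursor RNA and joins the exons. The spliceosome that does this is built from small nuclear ribonucleoproteins (snRNPs), each a small nuclear RNA with a ring of Sm or LSM proteins and a few proteins of its own. U1 marks the start of the intron, U2 with its SF3A and SF3B proteins and the U2AF dimer marks the branch point and the end of the intron, and the tri-snRNP of U4, U6 and U5 then joins and forms the catalytic centre. A minor spliceosome with U11 and U12 removes a rare class of introns. SR proteins and hnRNP proteins bind the RNA around exons and mostly favour or oppose exon use. In heart muscle, splicing regulators set the isoforms of sarcomere and ion channel genes.

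All arrays had nearly the same distribution of values, with medians from 6.236 to 6.242, and each array correlated at 0.988 to 0.994 with the mean of the others. They did part by 42 probe sets for bacterial poly-A RNA that is spiked in before labelling. On 11 arrays (6 exercised, 5 sedentary) the mean control signal was 7.22 to 8.20, and on 5 arrays (exercised 7 and 8, sedentary 6, 7 and 8) it was 5.81 to 6.31. The labels name no batch for these sets, and the low set holds no exercised female. Of 12 listed cardiomyocyte markers 10 were measured, all at or above the 98.1th percentile of level, so the tissue carried the transcripts of its label. Marker lists for endothelial cells (6 of 6 measured), fibroblasts (4 of 6), smooth muscle (5 of 6), leukocytes (4 of 7) and erythroid cells (3 of 4) had 0 members past the threshold, and of 3 measured atrial markers NPPA fell by 0.78 (adjusted p = 0.0457, limma). In bulk tissue, fewer cells of a type and less RNA per cell cannot be told apart.

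Training left most of these genes within a narrow range. Of the 65 genes, 1 rose, 2 fell and 62 did not pass the threshold, an adjusted p under 0.05 over all 23935 probe sets in limma. Across all 6765 genes on the same rule, 10.0% passed, with 5.11% higher and 4.91% lower, against 4.62% of the splicing genes. The gene that rose was SNRNP35, and those that fell were SRSF3 and HNRNPM. Each of them was covered by a single probe set, so no other value of these genes was at hand. The median difference, exercised minus sedentary, was 0.01 over the splicing genes (33 positive, 32 negative) and 0.01 over all genes, and the median size of the difference was 0.10 and 0.11. Differences ran from -0.50 to 0.58.

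The share past the threshold depended on signal level, and 60 of the 65 splicing genes lay above the 60th percentile of level, 6.88 log2. Above that level 4.36% of all genes passed, and 5.00% of the splicing genes did. At or below it 20.0% of all genes passed. With p-values adjusted over the probe sets above the 60th percentile alone, 2 of 60 splicing genes passed (3.33%) against 0.718% of all genes there. The order of the shares thus turned round. Above the 40th percentile alone, 3 of 63 passed (4.76%) against 3.65%. The 3.33% rested on SNRNP35 and SRSF3, and the mean level of SNRNP35, 6.90, was barely above the 6.88 cut. SNRNP35 also counted towards the 5.00%. With so few genes, these shares cannot show whether bright splicing genes passed more often than other bright genes. Unadjusted p-values under 0.05 were found for 11 of 65 splicing genes (16.9%) and for 22.9% of all genes. The 95% interval of the difference lay within 0.5 log2 of 0 on both sides for 58 of the 65 genes (89.2%, against 80.6% of all genes), and within 0.25 for 20. For those 58 genes a change of 0.5 log2 in either direction was outside the interval.

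**Figure D1:**
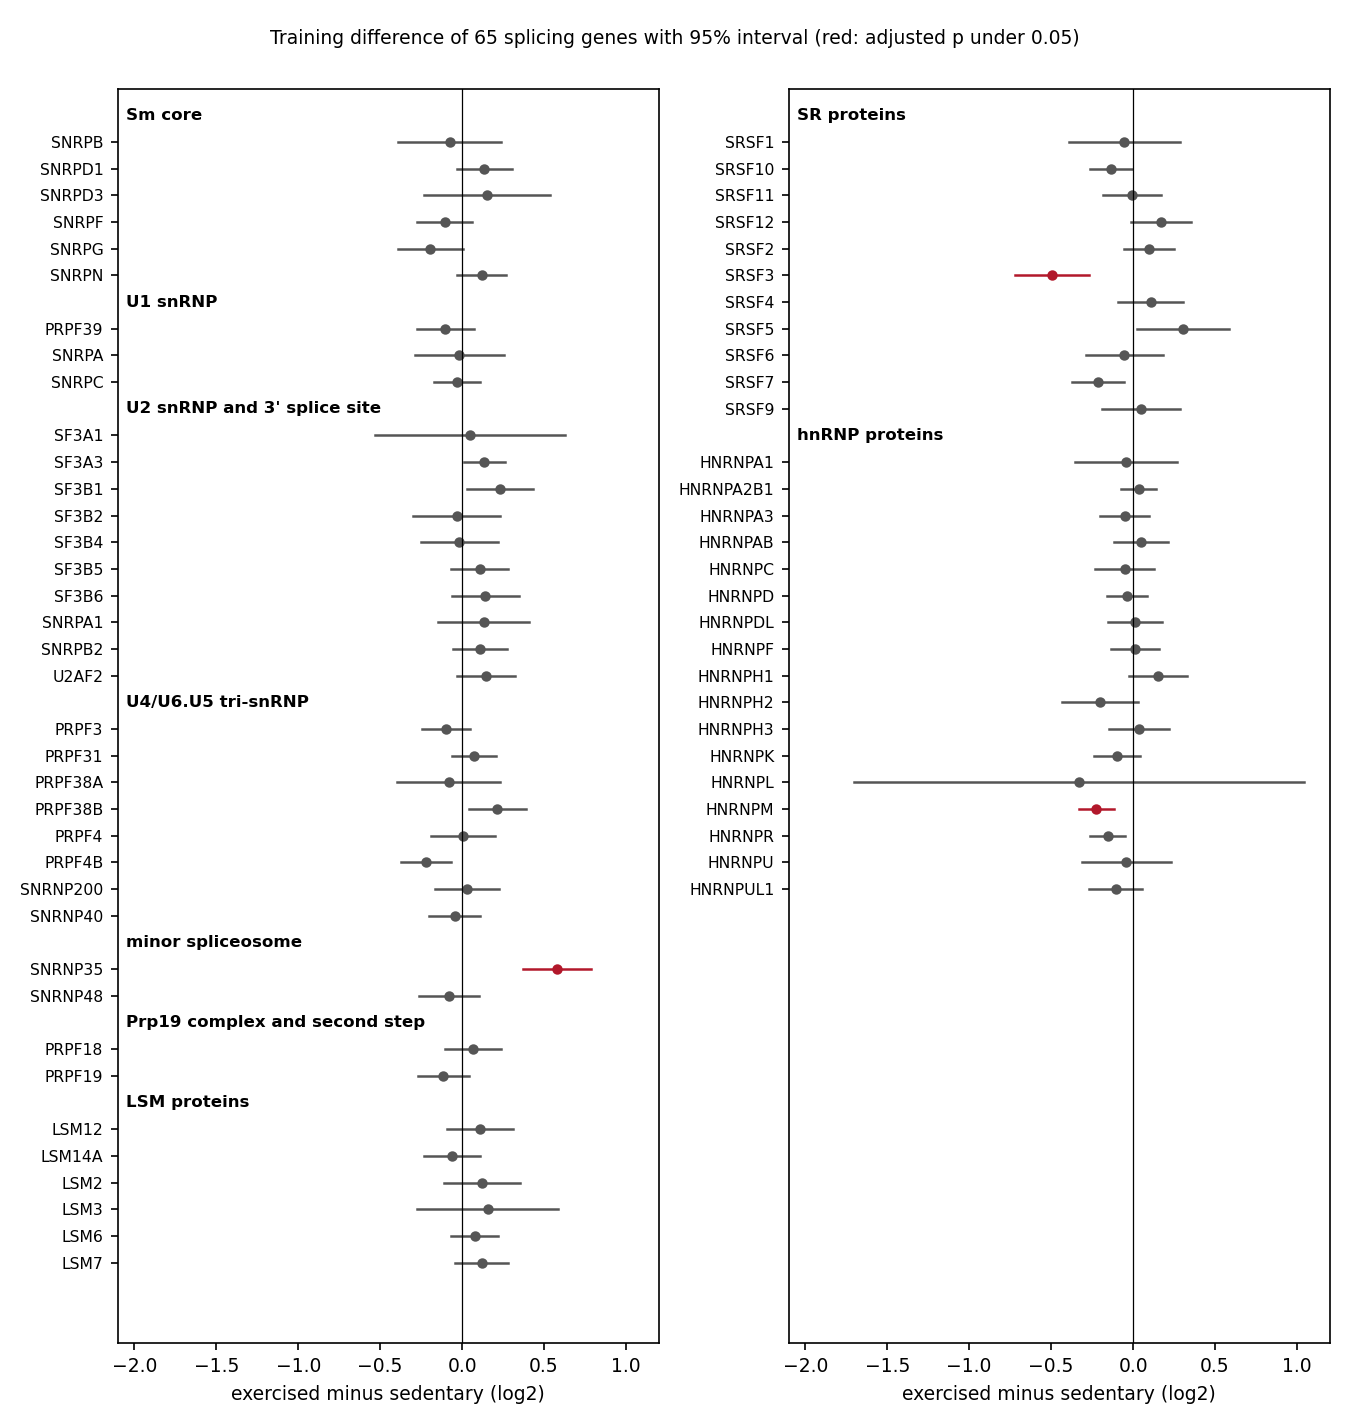
Difference between exercised and sedentary animals (log2, horizontal axis) for the brightest probe set of each of the 65 genes, ordered by role, with 95% intervals from the fit to 16 arrays. SNRNP35 at 0.58, SRSF3 at -0.50 and HNRNPM at -0.22, in red, passed an adjusted p of 0.05, and HNRNPL has the widest interval, from -1.70 to 1.04.

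The Sm proteins form the ring around the small nuclear RNAs of U1, U2, U4 and U5, and none of the 6 measured passed (0 of 6, median 0.02, range -0.19 to 0.15). SNRPG had values of 9.53, 9.94 and 10.26 (lowest, median and highest) in exercised and 10.06, 10.14 and 10.25 in sedentary animals. Its exercised values were spread more widely (SD 0.24 against 0.07, n = 8 each) and 6 of 8 lay below the sedentary mean, a difference of -0.19 (SE 0.09, adjusted p = 0.192, limma). The second SNRPG probe set gave -0.15 (adjusted p = 0.118). SNRPD3 gave 0.15 (SE 0.18), SNRPD1 0.13 (SE 0.08), SNRPB -0.08 (SE 0.15) and SNRPF -0.11 (SE 0.08). SNRPN, a close relative of SNRPB whose probes may be shared with it, gave 0.12 (SE 0.07, adjusted p = 0.301).

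Of the proteins particular to U1, 0 of 3 passed. SNRPA, which binds a stem loop of the U1 RNA, had means of 7.70 ± 0.27 in exercised and 7.72 ± 0.30 in sedentary animals (SD, n = 8). SNRPC, which helps U1 hold the start of the intron, had 10.30 ± 0.15 and 10.33 ± 0.09. Their differences were -0.02 and -0.03, smaller than either spread. PRPF39, a U1-associated protein that aids recognition of that site, is described with its second probe set below.

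Proteins of U2 and of the end of the intron were mostly positive without passing: 8 of 10 differences were above 0, the median was 0.12, and 0 of 10 passed. SF3B1, the large SF3B subunit that clamps the branch point, had 10.68, 11.00 and 11.31 in exercised and 10.44, 10.78 and 10.98 in sedentary animals. The groups overlapped over much of their range, with 6 of 8 exercised animals above the sedentary mean, and the difference was 0.23 (SE 0.09, 95% interval 0.03 to 0.43, adjusted p = 0.12, limma). Its second probe set gave 0.21 (SE 0.14). SF3A3, a subunit of SF3A, had 9.13, 9.28 and 9.38 against 8.96, 9.16 and 9.28, a difference of 0.14 (SE 0.06, adjusted p = 0.148). U2AF2, the large U2AF subunit that binds the polypyrimidine tract, gave 0.15 (SE 0.08), SF3B6 0.14 (SE 0.10), SF3B5 0.11 (SE 0.08) and SNRPB2 0.11 (SE 0.08). SF3B2 and SF3B4 gave -0.03 and -0.02.

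SF3A1, the largest SF3A subunit, differed by 0.05 between the groups (SE 0.27, adjusted p = 0.938) while its values ran from 7.36 to 9.10. Its 5 highest values were those of the 5 arrays with low poly-A control signal, 8.40 to 9.10, and the other 11 lay between 7.36 and 8.17. The difference between the sets was 1.16, low minus high.

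In the tri-snRNP of U4, U6 and U5, 0 of 8 genes passed. PRPF4B, a kinase of the tri-snRNP, had 8.03, 8.14 and 8.36 in exercised and 8.13, 8.42 and 8.55 in sedentary animals. All 8 exercised animals were below the sedentary mean, but the lowest sedentary value, that of sedentary 8, lay inside the exercised range. The difference was -0.22 (SE 0.07, adjusted p = 0.0557, limma). It passed when exercised 1 (adjusted p = 0.0416), exercised 5 (0.0331), sedentary 6 (0.0473) or sedentary 8 (0.0231) was left out, and with a block for the poly-A control set (0.0265), with array weights (0.0183) or without a sex term (0.0421). PRPF38B, a relative of the tri-snRNP factor PRPF38A, had 6.72, 6.97 and 7.15 against 6.48, 6.77 and 6.95, a difference of 0.22 (SE 0.08, adjusted p = 0.0959). SNRNP200, the helicase that unwinds U4 from U6, had means of 9.09 ± 0.13 and 9.07 ± 0.22 (SD, n = 8). PRPF3, PRPF4, PRPF31, PRPF38A and SNRNP40 lay between -0.10 and 0.07.

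The minor spliceosome held the gene that rose. SNRNP35 encodes the protein that takes the place of the U1-70K protein in the U11 particle. Its values were 6.91, 7.14 and 7.39 in exercised and 6.34, 6.60 and 6.95 in sedentary animals. The lowest 7 sedentary values, up to 6.82, were below every exercised value, and only sedentary 7, at 6.95, lay above exercised 1, at 6.91. The means were 7.19 ± 0.17 and 6.61 ± 0.22 (SD, n = 8), a difference of 0.58 (SE 0.10, 95% interval 0.37 to 0.79) or 1.49-fold, with an adjusted p of 0.00115 in limma. It passed in all 16 fits that left out 1 array, with differences from 0.53 to 0.63. On the arrays with high poly-A control signal the groups differed by 0.69 and on those with low signal by 0.43, and the fit to the high arrays alone gave an adjusted p of 0.00326. SNRNP48, the other U11 protein among the 65 genes, gave -0.08 (SE 0.09, 95% interval -0.27 to 0.10, adjusted p = 0.612). ZCRB1, a further protein of the U11 and U12 particle that lies outside the symbol rule, had 8.13, 8.40 and 8.45 in exercised and 7.88, 8.19 and 8.36 in sedentary animals. Of its exercised values 7 of 8 lay above the sedentary mean, and the difference of 0.22 (SE 0.08, adjusted p = 0.0754) did not pass, though it did with array weights (0.0202) and with a block for the poly-A control set (0.0318). The second ZCRB1 probe set gave -0.07.

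PRPF19, the ubiquitin ligase of the complex that helps activate the spliceosome, had means of 8.26 ± 0.13 and 8.37 ± 0.15 (SD, n = 8) and did not pass (difference -0.11, adjusted p = 0.359). PRPF18, a factor of the second catalytic step, had 8.70 ± 0.16 and 8.63 ± 0.17 (difference 0.07, adjusted p = 0.653). For both, the 95% interval lay within 0.5 log2 of 0.

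On the brightest probe sets none of the 6 LSM genes passed, with 5 positive differences and a median of 0.11. LSM2, LSM3, LSM6 and LSM7 encode subunits of the ring on U6 RNA, most of which also serve in messenger RNA decay. LSM7 had 8.40, 8.64 and 8.80 in exercised and 8.21, 8.56 and 8.81 in sedentary animals, a difference of 0.12 (SE 0.08, adjusted p = 0.342). LSM3 gave 0.16 with a wide error (SE 0.20), LSM2 0.12 (SE 0.11) and LSM6 0.08 (SE 0.07). The other LSM6 probe sets went the other way, at -0.21 (SE 0.12) and -0.21 (SE 0.15), and did not pass. Their changes did not differ past the threshold from that on the brightest (adjusted p = 0.105 and 0.161, limma). With a block for the poly-A control set the latter did (0.0728 and 0.0391). LSM12 and LSM14A carry the family's fold and act outside the U6 ring, and they gave 0.11 and -0.06. For LSM3, exercised values of 8.35 to 9.72 overlapped sedentary values of 8.56 to 9.74 almost fully.

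SR proteins bind exonic enhancers and recruit U1 and U2. Of 11 measured, 1 fell and 10 did not pass (median -0.004). SRSF3, the smallest classical SR protein, which also acts in messenger RNA export and in the splicing of its own transcript, had values of 10.51, 10.85 and 11.02 in exercised and 10.89, 11.42 and 11.61 in sedentary animals. All 8 exercised animals lay below the sedentary mean. The overlap came from sedentary 8 at 10.89, with sedentary 6 level with the highest exercised value at 11.02. Both are arrays with low poly-A control signal, and the other 6 sedentary values were at or above 11.18. The means were 10.83 ± 0.15 and 11.32 ± 0.26 (SD, n = 8), a difference of -0.50 (SE 0.11, 95% interval -0.72 to -0.27), 1.41-fold lower in exercised animals with an adjusted p of 0.006 in limma. It passed in all 16 fits that left out 1 array (-0.57 to -0.45) and in the fit to the high poly-A arrays alone (-0.53, adjusted p = 0.00383).

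SRSF7, the SR protein closest to SRSF3 in its RNA-binding domain, had 8.90, 9.05 and 9.20 in exercised and 9.02, 9.31 and 9.41 in sedentary animals. All 8 exercised animals lay below the sedentary mean of 9.24, and 3 sedentary animals lay among them. The difference of -0.21 (SE 0.07, adjusted p = 0.0739, limma) did not pass. It did without sedentary 4 (adjusted p = 0.0469), without sedentary 6 (0.0389), with array weights (0.033) and with a block for the poly-A control set (0.0469).

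SRSF5 pointed the other way, with 9.65, 9.79 and 10.07 in exercised and 8.77, 9.61 and 10.05 in sedentary animals. The sedentary males 5 and 3 were lowest at 8.77 and 9.03, and the other sedentary values lay between 9.57 and 10.05. The difference was 0.30 (SE 0.13, 95% interval 0.02 to 0.58, adjusted p = 0.15, limma). The fit to the high poly-A arrays alone, averaged over the sexes, gave 0.52 and passed (adjusted p = 0.0183). Animals 5 and 3 were the only sedentary males on those arrays. Plain group means differed by 0.43 on the high arrays and by 0.04 on the low arrays, which hold no exercised female.

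The remaining SR genes gave small values on their brightest probe sets. SRSF2, which binds enhancers of many exons, gave 0.10 (SE 0.07), SRSF4 0.11 (SE 0.09), and SRSF6 and SRSF1 -0.05 (SE 0.11 and 0.16). Other SRSF6 probe sets ran from -0.26 (SE 0.10, adjusted p = 0.11, limma) to 0.26 (SE 0.11, adjusted p = 0.155). Those of SRSF1 gave -0.29 (SE 0.15, adjusted p = 0.244) and 0.14 (SE 0.48). SRSF12, at 4.43 against 4.26, was the only splicing gene whose signal lay below the 95th percentile of the array's reporter sequences, 5.19, which target no pig gene, and its level is not well above background.

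**Figure D2:**
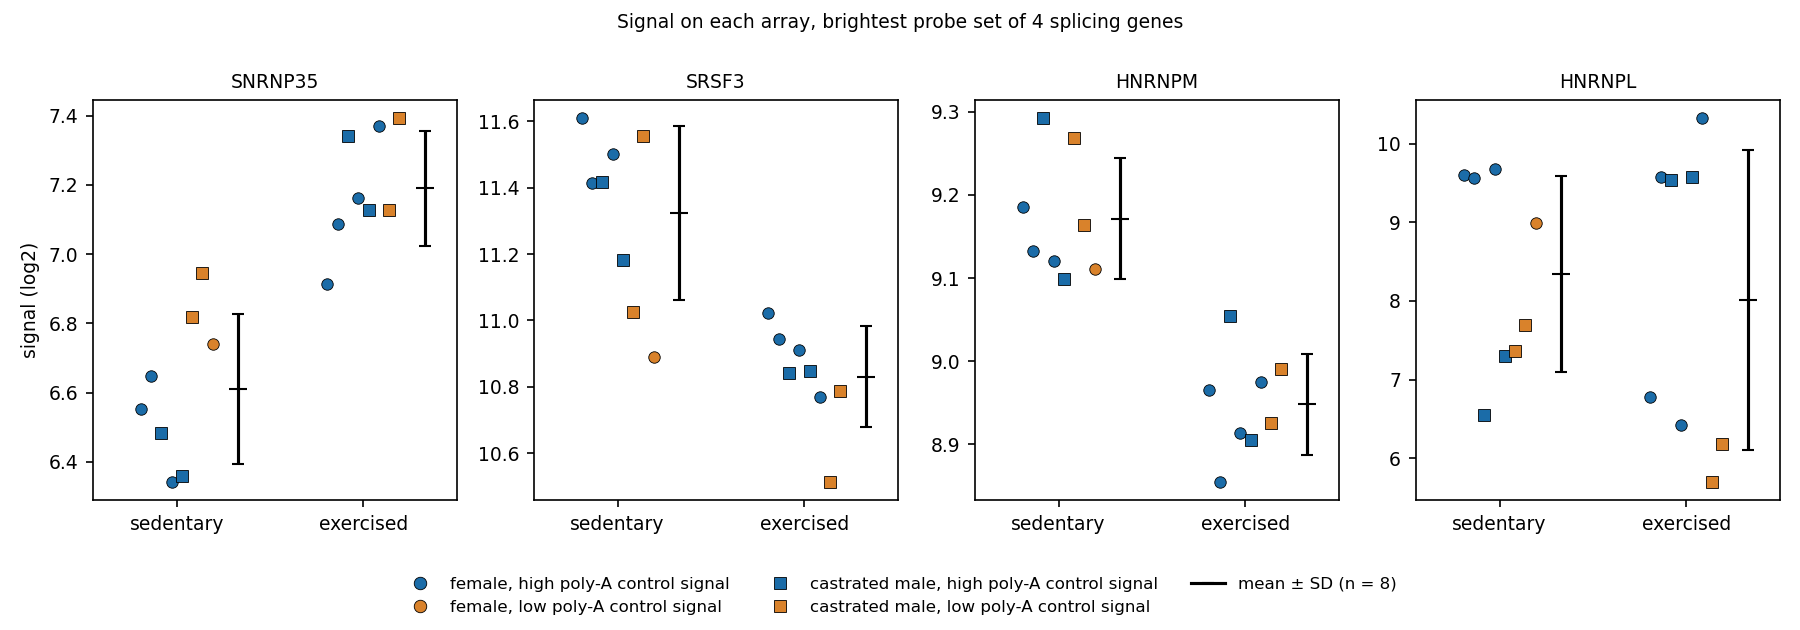
Log2 signal on each of the 16 arrays for SNRNP35, SRSF3, HNRNPM and HNRNPL, exercised and sedentary, with the mean and SD of 8 arrays. Colour gives the poly-A control set of the array and shape the sex. HNRNPM has no overlap between the groups, SNRNP35 and SRSF3 overlap by a few arrays, and HNRNPL lies in a low and a high range in both groups.

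The hnRNP proteins package nascent RNA and mostly oppose exon use. Of 17 measured, 1 fell and 16 did not pass, with a median of -0.04. HNRNPM, which binds GU-rich RNA and regulates exons of epithelial cells, had 8.85, 8.95 and 9.05 in exercised and 9.10, 9.15 and 9.29 in sedentary animals. Every exercised value was below every sedentary value, the only such case among the 65 genes. Groups did not overlap for 2.23% of all genes and for 0.324% of those above the 60th percentile of level. The means were 8.95 ± 0.06 and 9.17 ± 0.07 (SD, n = 8), a small difference of -0.22 (SE 0.05, 95% interval -0.33 to -0.12), 1.17-fold, with an adjusted p of 0.00775 in limma.

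The HNRNPM difference was -0.22 on both poly-A sets and passed in all 16 fits that left out 1 array. It did not pass when p-values were adjusted over the probe sets above the 60th percentile alone (adjusted p = 0.0728) or on the high poly-A arrays alone (-0.22, adjusted p = 0.0641).

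HNRNPR, which binds messenger RNA precursors and is close to SYNCRIP in sequence, had 9.89, 9.98 and 10.19 in exercised and 10.06, 10.15 and 10.29 in sedentary animals. Only exercised 2, at 10.19, lay above the lowest sedentary value. The difference of -0.16 (SE 0.05, adjusted p = 0.0561, limma) passed without exercised 2 (-0.19, adjusted p = 0.0199), with array weights (0.0368) and with a block for the poly-A control set (0.0457). The second HNRNPR probe set gave -0.04.

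HNRNPL, a regulator that binds CA-rich RNA, behaved unlike the others. Its exercised values were 5.70, 6.18, 6.43 and 6.78 in animals 7, 8, 4 and 1, and 9.54, 9.58, 9.58 and 10.32 in animals 3, 5, 2 and 6. Its sedentary values were 6.54, 7.30, 7.36 and 7.70 in the 4 males and 8.99, 9.56, 9.60 and 9.68 in the 4 females. Each group thus held 4 low and 4 high arrays, with no value between 7.70 and 8.99. In the sedentary group the low arrays were the males, and in the exercised group each sex gave 2 low and 2 high arrays. Of the arrays with low poly-A control signal, exercised 7 and 8 and sedentary 6 and 7 lay in the low range, and sedentary 8 in the high. Low minus high poly-A set, HNRNPL gave -1.26 (adjusted p = 0.228, limma). Plain group means differed by 0.17 on the high poly-A arrays and by -2.08 on the low, which hold no exercised female. The group difference was -0.33 (SE 0.65, 95% interval -1.70 to 1.04, adjusted p = 0.799, limma), so that even a large change was not detectable, and the sex difference of -1.38, male minus female, did not pass (SE 0.65, adjusted p = 0.539). A single probe set covered HNRNPL, so no other value was at hand.

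Among the other hnRNP genes, HNRNPA2B1, HNRNPD and HNRNPF lay close to 0 with narrow errors. HNRNPA2B1, an abundant exon repressor, had means of 11.78 ± 0.08 and 11.75 ± 0.08 (SD, n = 8), HNRNPD 10.97 ± 0.07 and 11.01 ± 0.09, and HNRNPF 10.25 ± 0.08 and 10.24 ± 0.15. HNRNPA1, which has many near-identical copies in mammalian genomes and may share probes with them, gave -0.04 (SE 0.15). HNRNPK gave -0.10 (SE 0.07) on its brightest probe set and 0.14 (SE 0.08) on the other. These changes did not differ past the threshold (adjusted p = 0.0713, limma). HNRNPH1 gave 0.15 (SE 0.08) and its near-identical relative HNRNPH2 -0.20 (SE 0.11) and -0.24 (SE 0.12) on both of its probe sets. Whether probes of the H family measure 1 gene each was not tested.

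Probe sets other than the brightest gave further calls. Of the 65 genes, 43 had a single probe set and 22 had several, which gave 38 pairs of a brightest and another probe set. On the other probe sets, 3 values were higher and 1 lower past the threshold (4 of 38), while 14.3% of such probe sets passed over all genes. The signs of the changes on the brightest and the other probe set were opposite in 19 of 38 pairs (50%), against 42.8% over all genes. When the difference between the changes was tested within arrays by limma over all 3304 pairs, 2 of the 38 passed (5.26%), SRSF10 and PRPF39, against 12.5% of all pairs. Which part of each transcript a probe set covers was not analysed here.

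**Figure D3:**
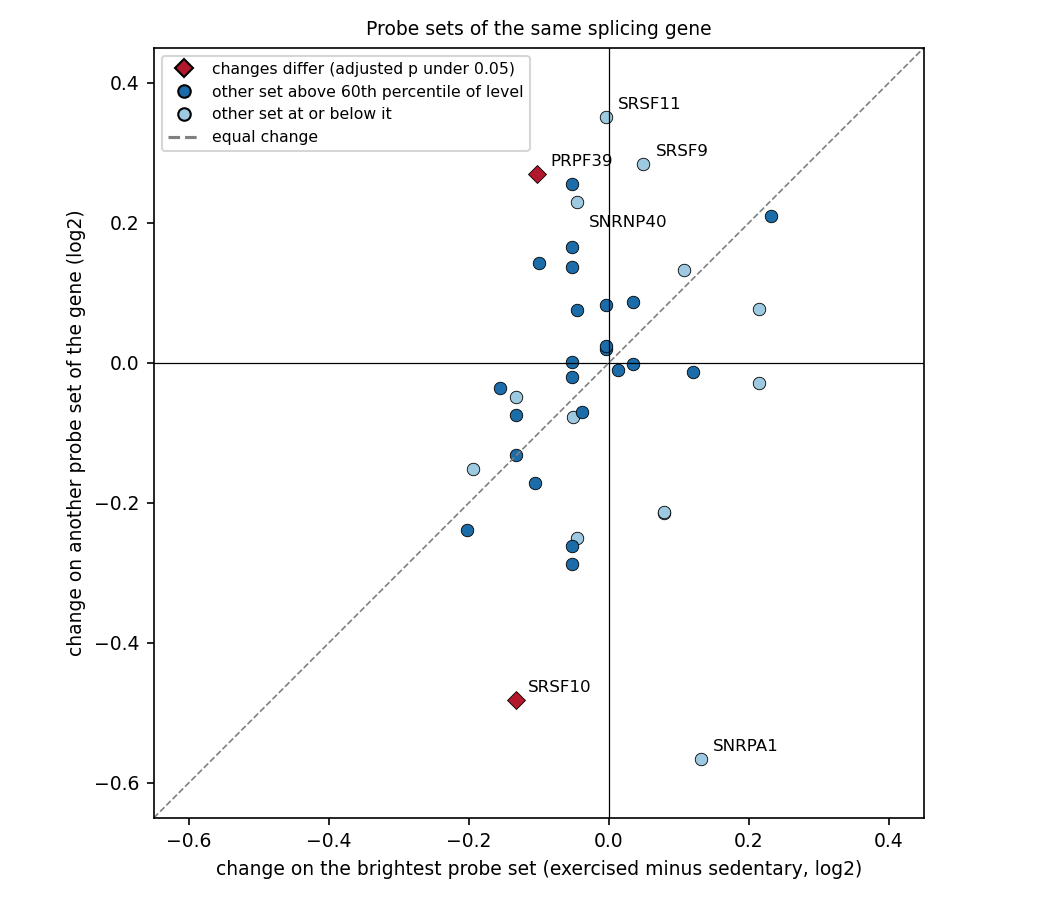
Exercised minus sedentary difference (log2) on the brightest probe set (horizontal axis) and on another probe set of the same gene (vertical axis), for 38 pairs of 22 genes. The line marks equal changes. Diamonds are the pairs of SRSF10 and PRPF39, whose changes differed at an adjusted p under 0.05.

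SRSF10 encodes an SR-like protein that acts as a splicing repressor when dephosphorylated and is known for a role in calcium handling genes of the heart. It had 5 probe sets. On the brightest the exercised values were 9.01, 9.15 and 9.31 and the sedentary values 9.16, 9.27 and 9.43, a difference of -0.13 (SE 0.06, adjusted p = 0.164). On the third brightest the exercised values were 6.82, 7.12 and 7.59 and the sedentary values 7.24, 7.59 and 8.06, and all 8 exercised animals lay below the sedentary mean. That probe set fell by 0.48 (SE 0.11, 95% interval -0.71 to -0.25, adjusted p = 0.00861, limma), and passed in all 16 fits that left out 1 array, but not when p-values were adjusted over the probe sets above the 60th percentile alone (adjusted p = 0.0567). The other 3 gave -0.13, -0.07 and -0.05.

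The change on the third brightest SRSF10 probe set exceeded that on the brightest by 0.35 (SE 0.10, adjusted p = 0.0294). This difference was 0.37 on the high and 0.40 on the low poly-A arrays. It lost its call, with adjusted p of 0.0508 to 0.0624, when exercised 1, 3, 6, 7 or 8 or sedentary 1, 2 or 3 was left out, and also without a sex term (0.0633) and on the high poly-A arrays alone (0.108).

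PRPF39 had 8.22, 8.48 and 8.84 in exercised and 8.38, 8.55 and 8.84 in sedentary animals on the brightest probe set, a difference of -0.10 (SE 0.08, adjusted p = 0.476). On the dimmer the values were 4.99, 5.13 and 5.80 against 4.62, 4.97 and 5.41, a difference of 0.27 (SE 0.14, adjusted p = 0.248) at a mean signal below the 95th percentile of the reporter sequences. Neither probe set passed, and the changes differed by -0.37, brightest minus dimmer (SE 0.11, adjusted p = 0.0329, limma). The call was lost, with adjusted p of 0.0547 to 0.0665, when exercised 2, 5, 6 or 7 or sedentary 2, 5, 6, 7 or 8 was left out, and also with a replicate block (0.0686) and on the high poly-A arrays alone (0.255).

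**Figure D4:**
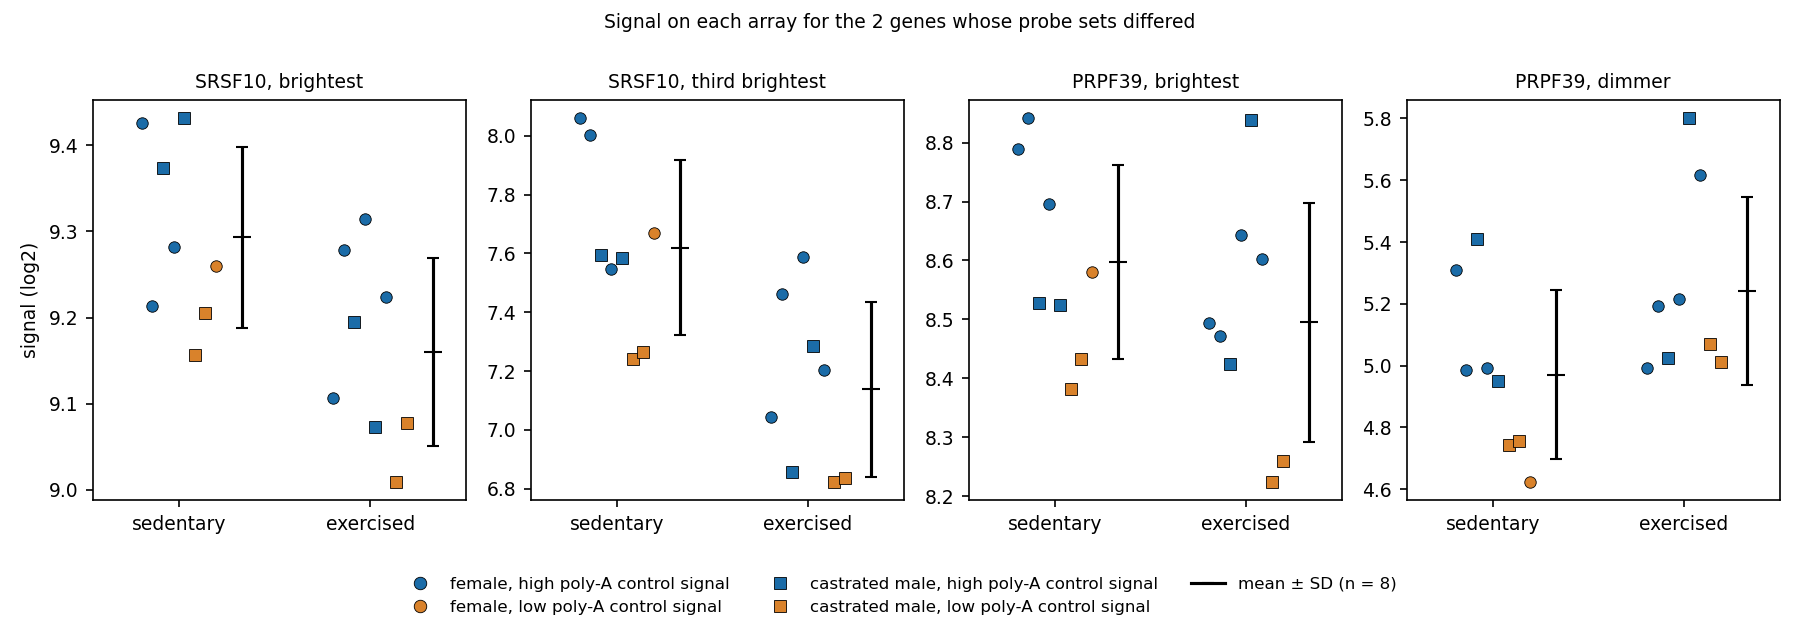
Log2 signal on each array for the brightest and the third brightest SRSF10 probe set and for the brightest and the dimmer PRPF39 probe set, exercised and sedentary, with the mean and SD of 8 arrays. The third brightest SRSF10 probe set shows the wider gap, 7.14 against 7.62, and the PRPF39 probe sets shift in opposite directions.

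The 3 higher calls lay on dim probe sets, and those of SRSF9 and SNRNP40 were below the 95th percentile of the reporter sequences, 5.19, and so not well above background. For SRSF9, an SR protein with a short RS domain, the dim set had 4.78, 4.92 and 5.14 in exercised and 4.53, 4.66 and 4.83 in sedentary animals and rose by 0.28 (adjusted p = 0.0134, limma), while the brightest gave 0.05. For SRSF11, an SR-related protein, the dimmest of 5 rose by 0.35 (6.03 ± 0.17 against 5.68 ± 0.28, SD, n = 8, adjusted p = 0.0379), and the other 4 lay between -0.004 and 0.08. For SNRNP40, a U5 protein, the dimmest of 4 rose by 0.23 (4.53 ± 0.14 against 4.30 ± 0.12, adjusted p = 0.0299), another gave -0.25 and the brightest -0.05. The changes on these 3 dim sets did not differ past the threshold from those on the brightest (adjusted p = 0.26, 0.116 and 0.108), but with a block for the poly-A control set those of SRSF11 (0.0458) and SNRNP40 (0.0391) did.

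The SRSF9 dim set passed in all 16 fits that left out 1 array and not on the high poly-A arrays alone (0.25, adjusted p = 0.123). The SRSF11 call was lost, with adjusted p of 0.0512 to 0.0763, without exercised 1, 3, 4, 5, 6 or 8 or sedentary 3, 4, 5, 6 or 7, with array weights (0.0546) and with p-values adjusted over the probe sets above the 40th percentile alone (0.0776). The SNRNP40 call was lost, with 0.0509 to 0.0613, without exercised 2, 4, 5 or 8 or sedentary 1, 4 or 6, and on the high poly-A arrays alone (0.092).

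SNRPA1, a protein of U2 that pairs with SNRPB2, had the largest gap of the 38 pairs, 0.70, which did not pass (adjusted p = 0.123). The brightest gave 0.13 (SE 0.13) and the dimmer -0.57 (SE 0.19, adjusted p = 0.0591, limma). On the dimmer, exercised females 6, 4 and 2 were at 4.29, 5.04 and 5.46 and exercised 1 at 6.12, whereas all sedentary values lay between 5.90 and 6.43. In females alone the dimmer fell by 1.06 (adjusted p = 0.0385), and in males it gave -0.07. The difference between those effects did not pass (adjusted p = 1.00).

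Effects within each sex rested on 4 animals against 4. In females 1 of the 65 genes passed, SNRNP35 (0.56, adjusted p = 0.0342, limma), against 2.60% of all genes. In males 1 passed, again SNRNP35 (0.60, adjusted p = 0.0254), against 2.57%. SRSF3 gave -0.44 in females (adjusted p = 0.116) and -0.55 in males (0.0536), and HNRNPM gave -0.21 (0.113) and -0.24 (0.0757). For all 3 the direction was thus the same in both sexes, and neither SRSF3 nor HNRNPM passed in a single sex. The SNRNP35 call in females was lost without exercised 2, 4 or 6 or sedentary 1, 2 or 4 (adjusted p = 0.0636 to 0.096), and in males without exercised 3 or 8 or sedentary 3 or 5 (0.0656 to 0.0816). The high poly-A arrays hold only 2 exercised and 2 sedentary males. On them alone the SNRNP35 call in males was lost too (0.81, adjusted p = 0.0528). SRSF5 passed there instead, against sedentary males 3 and 5, which had its lowest sedentary values.

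The difference between the male and the female effect passed for 0 of 65 genes and for 0% of all genes in limma, with an unadjusted p under 0.05 for 1 splicing gene (1.54%, against 2.47% of all genes). That gene was SNRPA1 on its brightest probe set, 0.45 in females and -0.19 in males. SF3B5 gave 0.27 in females and -0.06 in males, and LSM7 0.25 and -0.01. All 3 had an adjusted p of 1.00. For SNRNP35 the effects differed by 0.03 (SE 0.19).

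The sex difference over both training groups passed for 0 of 65 genes in limma, against 0.0739% of all genes, with 7 unadjusted p-values under 0.05 (10.8%, against 10.4% of all genes). SRSF4 was higher in males by 0.25 (SE 0.09), with means of 9.05 and 8.99 in exercised and sedentary males and 8.85 and 8.69 in exercised and sedentary females. SNRPN was higher in males by 0.17 (SE 0.07) and HNRNPH2 lower by 0.25, a difference of -0.25 (SE 0.11). All 3 had an adjusted p of 0.537. The low poly-A arrays came from 2 exercised males, 2 sedentary males and 1 sedentary female, so sex and poly-A set were unevenly mixed. Low minus high, SRSF4 gave 0.28 and HNRNPH2 -0.34 (adjusted p = 0.0346 and 0.0248, limma), and SNRPN gave 0.01. The sex differences above are not adjusted for the poly-A set.

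The poly-A control sets of the arrays differed in more of these genes than the training groups did. On the low arrays 15 splicing genes were lower and 8 higher past the threshold, 23 of 65 (35.4%), against 28.0% of all genes (11.8% lower and 16.2% higher). Besides SF3A1, SNRPB was 0.62 higher on the low arrays, and PRPF38A gave -0.61 and SNRPD3 -0.59, low minus high. SNRNP35, SRSF3 and HNRNPM were not among the 23. The training difference had the same sign in both sets for 46 of the 65 genes. What sets these arrays apart was not tested.

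The wider splicing machinery was followed in a list of 144 other genes, of which 85 were measured. Of the 85, 3 rose and 0 fell (3.53%, against 10.0% of all genes, median -0.02). Above the 60th percentile of level lay 78 of the 85, and 4.36% of all genes above it passed. GEMIN6, a subunit of the SMN complex that loads Sm rings onto small nuclear RNA, had 7.81, 7.88 and 8.24 in exercised and 7.43, 7.67 and 7.91 in sedentary animals and rose by 0.32 (SE 0.09, adjusted p = 0.0307, limma). All 8 exercised animals lay above the sedentary mean, with the groups overlapping at 7.81 to 7.91. CDC5L, a core protein of the Prp19 complex, rose by 0.19 (9.47 ± 0.07 against 9.28 ± 0.12, SD, n = 8, adjusted p = 0.0425), but its second probe set gave -0.08. EWSR1, an RNA-binding protein of the FET family, rose by 0.50 at a signal of 4.74 against 4.24, below the 95th percentile of the reporter sequences.

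EWSR1 passed in 16 of the 16 fits that left out 1 array, GEMIN6 in 9 and CDC5L in 4. GEMIN6 was lost without exercised 1, 3 or 4 or sedentary 3, 6, 7 or 8, with adjusted p of 0.0508 to 0.065. CDC5L kept its call only without exercised 7 or sedentary 1, 4 or 5, with an adjusted p of 0.0516 to 0.0768 without any other array. It was also lost with a trended and robust fit (0.074), array weights (0.0515), a replicate block (0.0671) and the mean of its probe sets (0.567). On the high poly-A arrays alone the adjusted p was 0.152, 0.105 and 0.15 for EWSR1, GEMIN6 and CDC5L. The calls there were UPF3B, higher, and SMNDC1 and SYNCRIP, lower (3.53%, against 8.43% of all genes). With a block for the poly-A control set 7 rose and 5 fell, so the absence of falls did not hold. Those that fell were DHX15, RBM39, SYNCRIP, TRA2A and TRA2B. In that fit 14.1% of the 85 genes passed against 14.8% of all genes, so the lower share did not hold either.

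By role, the 3 calls were spread over separate lists. The SMN complex and snRNP assembly gave 1 higher of 12 measured (9 positive), RNA helicases and proteins of the activated spliceosome 1 of 23, and other hnRNP-like proteins 1 of 17. SR-related proteins and SR protein kinases (0 of 11), branch point and splice site factors (0 of 7), exon junction and export proteins (0 of 11) and tissue-specific regulators (0 of 4) had none. PTBP1, the polypyrimidine tract repressor, gave 0.02, QKI, a regulator of muscle exons, -0.10 and RBFOX2, a regulator of heart exons, -0.07, none passing (adjusted p = 0.91, 0.595 and 0.648). RBM20, MBNL1 and CELF1 were not analysed here.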

How the data were processed

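RNA of frozen left ventricle was made into biotin-labelled cRNA and read on Affymetrix pig arrays of 1 colour, per the labels' protocols. The authors deposited log2 signals. Probe summarisation and array normalization are not given in the sources used here. No further normalization was applied. Of 24123 probe sets, 188 controls were left out. Symbols came from the platform annotation, and all 103 probe sets of the splicing genes matched RefSeq (Sscrofa11.1) by Entrez identifier, with 0 symbols changed.

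Means for exercised females, exercised males, sedentary females and sedentary males were fitted over 16 arrays with limma 3.58.1 in R 4.3.3 (12 residual and 3.50 prior degrees of freedom). Training was tested as the average of both sexes, within each sex and between the sexes, and the sexes were compared over both training groups. All p-values are two-sided, and the adjusted p (Benjamini-Hochberg) runs over the 23935 probe sets. SD and n are over animals of a group, SE and intervals are from the fit, and the number of arrays limits the precision.

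The splicing genes and the gene lists were chosen with earlier results of these data known. Values are given for genes that passed on any probe set, the 2 smallest p of each role, the member with the highest signal of each role, and the 3 smallest p of a sex contrast without calls. SRSF5, SF3A1 and HNRNPL were singled out after their values were seen, for the size of their spread or difference, as were SNRPA1's probe sets. Alternatives were other scalings, filters on dim probe sets, other variance settings, blocks, no sex term, the mean of a gene's probe sets, an adjusted p of 0.1 and leaving out each array. The high poly-A arrays alone, the test of probe set pairs and all probe sets of the members were added after the data were seen. In simulated data of 23935 probe sets with 200 changed, the training fit called 72% of those set to 0.5 log2 and 97% of those set to 1 log2, and 7.65% of calls were false. The simulated noise was independent between probe sets and held no shift between poly-A sets. In the real data 3197 probe sets passed, so these rates need not hold for them. Plots used matplotlib 3.10.9 under Python 3.11.15.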

Additional observations from a re-analysis of the deposited data

Results flagged for a closer look

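In 5 of the 130 groups of 8 arrays formed by the brightest probe sets of the 65 splicing genes, the highest or lowest array stood apart from the other 7 by more than 0.526 of the group's range, the 95% limit of Dixon's test. Chance alone gives about 1 in 20 such groups. HNRNPA2B1 was 11.57 on sedentary 2, with the next value at 11.74. HNRNPD was 10.81 on exercised 4, with the next at 10.95. HNRNPH1 was 11.48 on exercised 5, with the next at 11.10. LSM2 was 9.19 on exercised 8, with the next at 8.77. LSM6 was 6.75 on sedentary 6, with the next at 6.90. The arrays concerned were 5 different ones, and none of these 5 genes passed in the training comparison with or without them.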

How the results depend on the processing

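No result changed direction while past the threshold under the alternatives run. The count of 3 splicing genes past the threshold became 6 with array weights, 6 with the poly-A control set as a block and 7 at an adjusted p of 0.1, and 3 to 5 when an array was left out. Shares moved for all genes too: splicing genes 9.23%, 9.23% and 10.8% against 12.2%, 14.8% and 15.5%. The 1 higher gene became 2 at an adjusted p of 0.1 and 2 on the high poly-A arrays alone (1 to 1 leaving out an array). The 2 lower genes became 1 above the 60th percentile (all calls 3.33% against 0.718% of all genes), 5 with array weights, 5 with the poly-A block, 5 at an adjusted p of 0.1 and 1 on the high poly-A arrays (2 to 4). The 3 other splicing genes became 0 above the 40th and 0 above the 60th percentile, where EWSR1 was no longer tested. They became 5 with weights, 12 with the poly-A block (7 higher, 5 lower) and 7 at 0.1 (1 to 3). The last 3 shares were 5.88%, 14.1% and 8.24%, against 12.2%, 14.8% and 15.5% of all genes. In females, the count of 1 became 0 above the 40th and 60th percentiles and with the mean of a gene's probe sets, 5 with weights, and 2 with the poly-A block, at 0.1 and on the high poly-A arrays (0 to 2). In males, the count of 1 became 0 above the 40th and 60th percentiles and 2 with a trended and robust fit. It became 2 with weights, 2 with the poly-A block and 3 at 0.1 (0 to 2). On the high poly-A arrays, with 2 males in each group, it stayed 1 with SRSF5 in place of SNRNP35. Of the probe set pairs, 2 became 4 with weights, 5 with the poly-A block, 1 without a sex term and 4 at 0.1 (0 to 2). The difference between the male and female effect and the sex difference stayed at 0 calls under each alternative run (0 to 0). For the counts within a sex and of probe set pairs, the share of all genes under each alternative was not worked out. The causes of these changes were not tested.

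With the replicate number as a block, 3 splicing genes passed as before, and in each sex the count became 0 (SNRNP35, adjusted p = 0.0835 in females and 0.0633 in males). The numbers share no stated origin, so same-numbered arrays were not taken as pairs. They correlated at -0.03 to 0.39 in their deviations, with 3 of 8 pairs below 0.1 and replicates 3 and 5 to 8 at 0.23 to 0.39. Most same-numbered arrays also shared a sex and a poly-A set. Whether they are pairs cannot be told from these values. Averaging the probe sets of a gene gave -0.22 for SNRPA1, -0.12 for LSM6 and 0.08 for PRPF39. The low poly-A arrays alone could not be fitted, as they hold no exercised female. In simulated data, changes of 0.5 log2 were called less often than changes of 1 log2. Dim probe sets near the reporter level have no firm level.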

Other observations

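Further splicing genes passed only on a probe set that was not the brightest, and none of these values was part of a comparison above. Over all genes 14.3% of probe sets other than the brightest passed. The share among such probe sets of the listed other splicing genes was not worked out. TRA2B, an SR-like activator of exons, fell by 0.28 on the third brightest of its probe sets (9.33 ± 0.12 against 9.61 ± 0.16, SD, n = 8, adjusted p = 0.0254, limma), and its brightest gave -0.15. SRRM1, a coactivator of SR-dependent splicing, fell by 0.29 on the dimmer of its probe sets (7.16 ± 0.10 against 7.44 ± 0.15, adjusted p = 0.0115), and the brightest gave 0.11. RBM39, an SR-like protein close to U2AF2, fell by 0.26 on its second probe set (adjusted p = 0.0256). Its brightest gave -0.19 and its dimmest -0.07. GEMIN5, the SMN complex subunit that binds small nuclear RNA, rose by 0.47 on its dimmest probe set (adjusted p = 0.0078), where the brightest gave -0.11. UPF3B, of the exon junction complex, rose by 0.39 and 0.33 on a pair of its 5 probe sets, the latter below the 95th percentile of the reporter sequences, and gave 0.28 on the brightest and -0.15 and -0.22 on the remaining pair. These genes were singled out after their values were seen.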
